A study of Mus musculus with 18 samples.

Results

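The transcription factor p53 is known to switch on a set of genes, and 10 of them were followed through 18 mouse liver samples: Cdkn1a, Mdm2, Ccng1, Phlda3, Eda2r, Sesn2, Trp53inp1, Bax, Plk2 and Gdf15. They were chosen by name as well-known p53 targets, with earlier results of these data known. All 10 were found among the 54838 genes of the expression table. The samples were wild-type (WT) or miR-181ab1 global knockout (GKO) mice of the C57BL/6 strain, all 36 weeks of age, with 3 samples in each of 6 groups. WT tumours, GKO tumours and the surrounding livers of each genotype (non-tumours) came from mice given the carcinogen diethylnitrosamine (DEN) at 25 mg/kg on postnatal day 12, and the normal livers of each genotype came from untreated mice. The study's methods describe a single intraperitoneal injection of male pups, with knockout and wild-type littermates caged together. The GKO mice lacked the microRNA cluster in every tissue, so hepatocytes and all other cells of the liver carried the deletion. No label pairs a tumour with the non-tumour of its animal or states that replicates were separate animals. The study describes expression in tumours and non-tumours of several mice a group without tying mice to these samples, so the p-values measure the spread between these samples.

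The unit was transcripts per 1000000 transcripts (TPM), a level per length of transcript that can be compared between genes. Samples held between 11925060 and 20751388 reads on genes, as recovered from the TPM values and the transcript lengths. The hairpin gene Mir181a-1 was listed at 0 in 17 of 18 samples and at 1 read (1.40 TPM) in GKO tumour 3, and Mir181b-1 was listed at 0 in all 18, so these libraries did not check the deletion. In bulk tissue, fewer cells of a type and less RNA per cell cannot be told apart. Hepatocyte markers were abundant in every sample. The summed level of 8 of them, led by Alb or Apoa1, was 61854 TPM in the lowest liver and 209145 TPM in the highest tumour.

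p53 is held at a low level by its own target MDM2, an enzyme that marks it for destruction, and accumulates when DNA is damaged, when oncogenes are active or when the tumour suppressor ARF binds MDM2. Its targets then stop the cell cycle, start cell death, slow growth signalling or feed back on p53 itself. In the liver, DEN is turned by hepatocyte enzymes into an alkylating agent, and tumours arise months later from cells that divided while damaged. Several of the targets also answer to other signals: Gdf15 and Sesn2 to the stress factor ATF4, and Plk2 and Cdkn1a to growth factor signals.

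The binding site of p53, the p53 response element, consists of a pair of 10-base copies of the same palindromic pattern, each with a 4-base core. A search of the 300 bases around annotated starts (250 before to 50 after, RefSeq windows on GRCm38.p6, the assembly of mm10) allowed up to 2 mismatches outside the cores and a spacer of at most 1 base. The pattern reads the same on both strands, so both were covered. Of the 10 genes, 9 had a window and Trp53inp1 had none, and 2 of the 11 windows held such a site, against 105 of 32817 windows (0.32%) over all genes. Both are shown because they are the letters that matched the p53 pattern in these windows. Capitals mark the 4-base cores.
Cdkn1a: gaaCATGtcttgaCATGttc
Bax: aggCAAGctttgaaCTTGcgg
The Cdkn1a site lies at chr17:29090928-29090947 on the plus strand, and has 1 mismatch and no spacer. It begins 51 bases before the more upstream annotated start of the gene. The window of a start further downstream, at chr17:29093519-29093818, held no such site. The Bax site lies at chr7:45467079-45467099 on the minus strand, begins 201 bases before the start, and has 2 mismatches and a spacer of 1 base. A single exact 10-base copy was present in windows of 4 of the genes and in 8.36% of all windows. Among the other p53 targets listed for comparison, 3 of 36 windows held a full site. A match is a description of the letters, and the absence of one here says nothing of sites elsewhere in a gene.

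Levels of the 10 genes were highest in some tumours and not in others of the same genotype. WT tumours 1 and 2 held the highest value of 18 samples for 9 of the 10 genes, WT tumour 2 for 6 of them and WT tumour 1 for 3. WT tumour 3 was outside the top 3 for every one of the 10 genes and was the lowest of all 18 samples for 2. GKO tumour 2 was in the top 3 for 8 genes, and GKO tumours 1 and 3 for none.

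**Figure D1:**
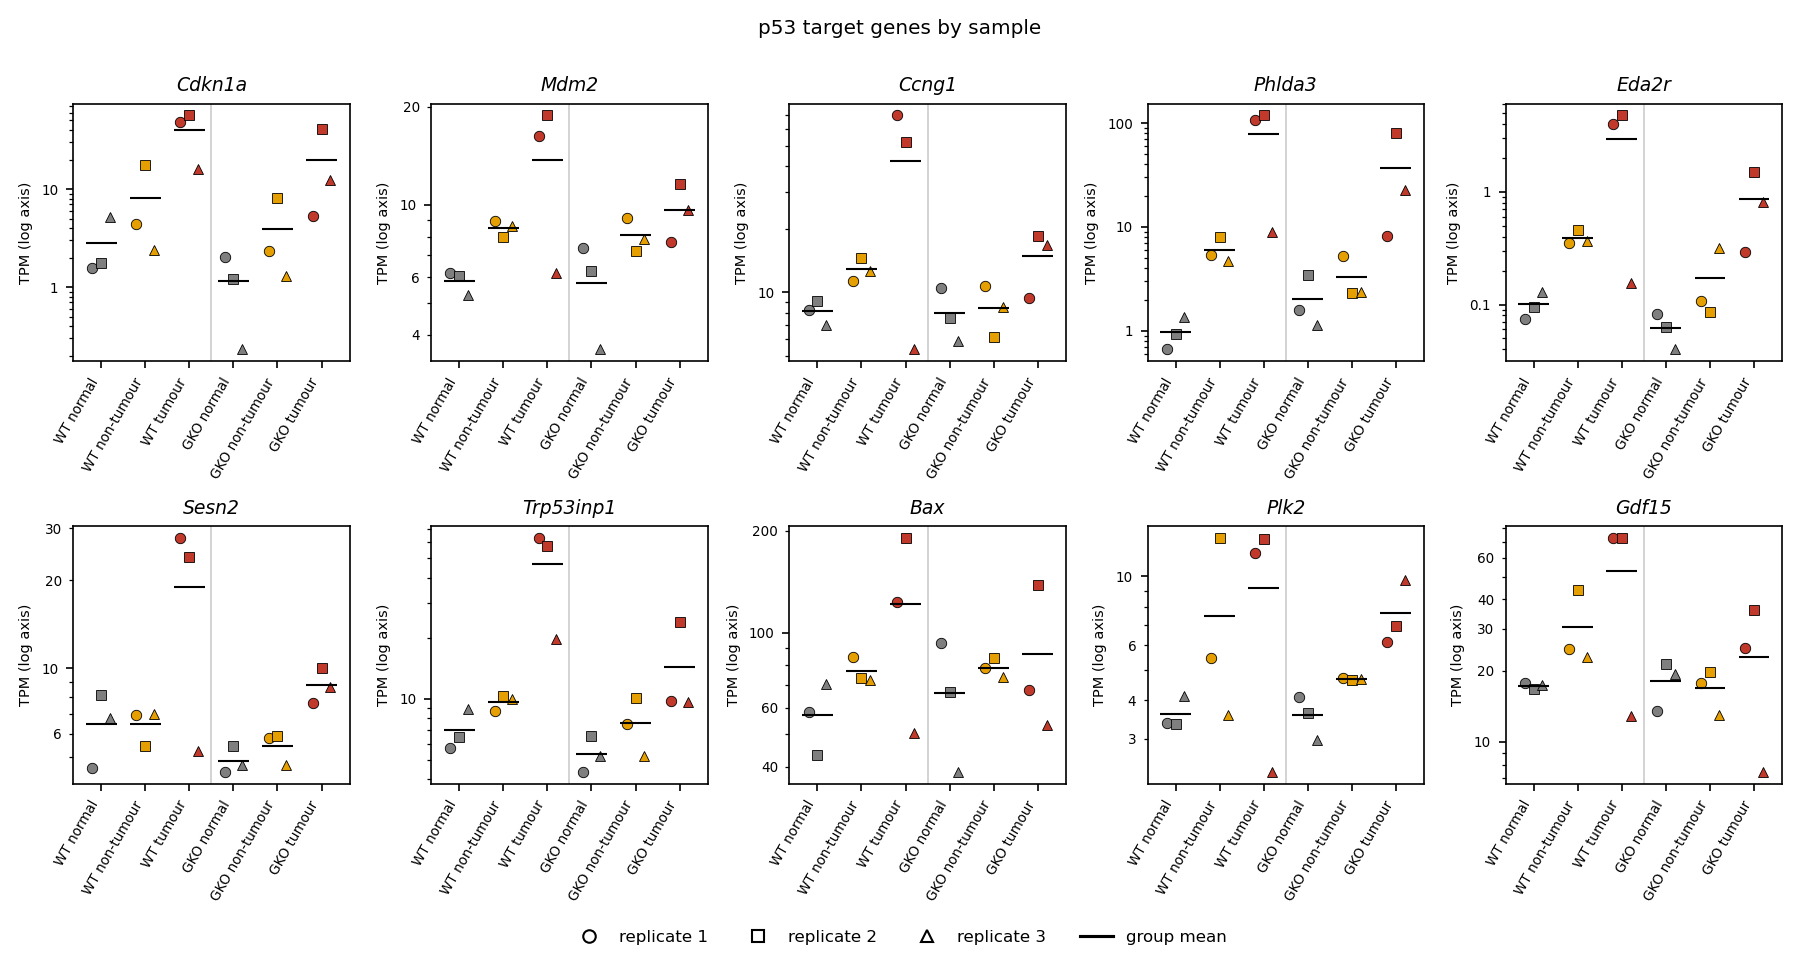
Levels of the 10 p53 target genes in TPM (log axis) for each sample, by group. Symbols give the replicate and horizontal lines the group mean of 3 samples. WT tumours 1 and 2 and GKO tumour 2 stand above the other samples for most genes, and WT tumour 3 lies within or below the range of the 12 livers without tumour for 8 of the 10 genes.

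The first role is arrest of the cell cycle, carried by Cdkn1a, which encodes p21, an inhibitor of cyclin-dependent kinases. Cdkn1a stood at 47.9, 56.3 and 15.9 TPM in WT tumours 1, 2 and 3, and at 4.38, 17.6 and 2.39 TPM in the WT non-tumours. In GKO tumours it stood at 5.27, 41.3 and 12.3 TPM, and in GKO non-tumours at 2.34, 8.15 and 1.29 TPM. The normal livers held 1.58 to 5.15 TPM in WT and 0.231 to 2.03 TPM in GKO, and overlapped the non-tumours in both genotypes. WT non-tumour 2 reached above WT tumour 3, and GKO non-tumour 2 above GKO tumour 1, so tumours and non-tumours overlapped in both genotypes. Ccng1 encodes cyclin G1, a p53-induced protein that acts with a phosphatase on MDM2. It stood at 69.6 and 52.2 TPM in WT tumours 1 and 2 and at 5.36 TPM in WT tumour 3, which was the lowest of all 18 samples. The WT non-tumours, at 11.4, 14.6 and 12.7 TPM, lay between these extremes. GKO tumours were at 9.46, 18.6 and 16.8 TPM and GKO non-tumours at 10.7, 6.11 and 8.55 TPM, and only GKO tumours 2 and 3 were above all 12 livers without tumour.

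Feedback on p53 is the role of Mdm2. It stood at 16.3, 18.8 and 6.17 TPM in WT tumours and at 7.69, 11.6 and 9.66 TPM in GKO tumours, against 7.23 to 9.10 TPM in the 6 non-tumours and 3.61 to 7.37 TPM in the 6 normal livers. All 6 non-tumours but GKO non-tumour 2 were above every normal liver. Trp53inp1 encodes a nuclear protein that acts with p53 in arrest and cell death and takes part in autophagy. Its levels were 62.8, 57.1 and 19.8 TPM in WT tumours, all above the 12 livers without tumour, whose highest value was 10.3 TPM. In GKO tumours it stood at 9.73, 23.9 and 9.65 TPM, and only GKO tumour 2 was above that value.

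Growth and nutrient signalling is the role of Phlda3 and Sesn2. Phlda3 encodes a small protein that keeps the kinase Akt off the membrane. Its level spread from 0.661 TPM in WT normal liver 1 to 119 TPM in WT tumour 2. WT tumours stood at 108, 119 and 8.94 TPM and GKO tumours at 8.26, 80.9 and 22.6 TPM, and each of the 6 tumours was above all 12 livers without tumour. WT non-tumours were at 5.39, 7.93 and 4.68 TPM, all above the 6 normal livers (0.661 to 3.42 TPM), while GKO non-tumours were at 5.24, 2.29 and 2.39 TPM and overlapped them. Sesn2 encodes sestrin 2, a leucine sensor that restrains the growth kinase complex mTORC1. It stood at 27.8 and 23.9 TPM in WT tumours 1 and 2, at 5.22 TPM in WT tumour 3, and at 7.63, 10.1 and 8.66 TPM in GKO tumours. The 12 livers without tumour spread from 4.44 to 8.13 TPM, and non-tumours and normal livers overlapped.

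Cell death is the role of Bax, a protein that opens the outer mitochondrial membrane, and of the receptor gene Eda2r. Bax was the most abundant of the 10 genes by mean level, at 123, 190 and 50.5 TPM in WT tumours and at 67.5, 139 and 53.3 TPM in GKO tumours. The 12 livers without tumour held 38.6 to 93.0 TPM, so that 3 of the 6 tumours were above all of them and 3 within their range. Eda2r encodes a receptor of the tumour necrosis factor family for ectodysplasin A2 and was the least abundant, at 2 to 22 reads in the livers without tumour. It stood at 3.98, 4.77 and 0.154 TPM in WT tumours and at 0.294, 1.52 and 0.807 TPM in GKO tumours. The livers without tumour spread from 0.0399 to 0.457 TPM, and WT tumour 3 and GKO tumour 1 lay within that range.

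Plk2 encodes a kinase that controls centriole duplication, and Gdf15 a secreted hormone of stressed cells that acts on appetite through the brainstem. Plk2 stood at 11.9, 13.2 and 2.35 TPM in WT tumours and at 6.15, 6.92 and 9.74 TPM in GKO tumours. It was the only one of the 10 genes whose highest value came from a non-tumour, WT non-tumour 2, with 13.3 TPM against 5.47 and 3.59 TPM in the other WT non-tumours. GKO non-tumours were at 4.72, 4.63 and 4.67 TPM, and the 6 normal livers at 2.98 to 4.12 TPM. Gdf15 stood at 72.7, 72.7 and 12.8 TPM in WT tumours and at 24.8, 36.0 and 7.43 TPM in GKO tumours. WT tumour 3 and GKO tumour 3 were below all 12 livers without tumour, which held 13.0 to 43.9 TPM with WT non-tumour 2 as the highest.

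Each tumour was then set against the 12 livers without tumour, of both genotypes. WT tumours 1 and 2 were above all 12 livers for 9 of the 10 genes, and 21.7% and 22.3% of the 13914 genes averaging 0.5 TPM or more were above in the same tumours. WT tumour 3 was above for 2 genes (Phlda3 and Trp53inp1) and below all 12 for 3 (Ccng1, Plk2 and Gdf15), and 19.9% of all genes were above. Of the GKO tumours, tumour 1 was above for Phlda3 only (21.4% of all genes), tumour 2 for 8 genes (17.0%) and tumour 3 for 5 (33.8%). WT non-tumour 2 had the highest level among these livers for Cdkn1a, Phlda3, Eda2r, Trp53inp1, Plk2, Gdf15 and Ccng1, and without it the counts were 10, 10 and 3 genes in WT tumours 1, 2 and 3 and 3, 10 and 7 in GKO tumours 1, 2 and 3, with 27.1% to 44.4% of all genes above.

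**Figure D2:**
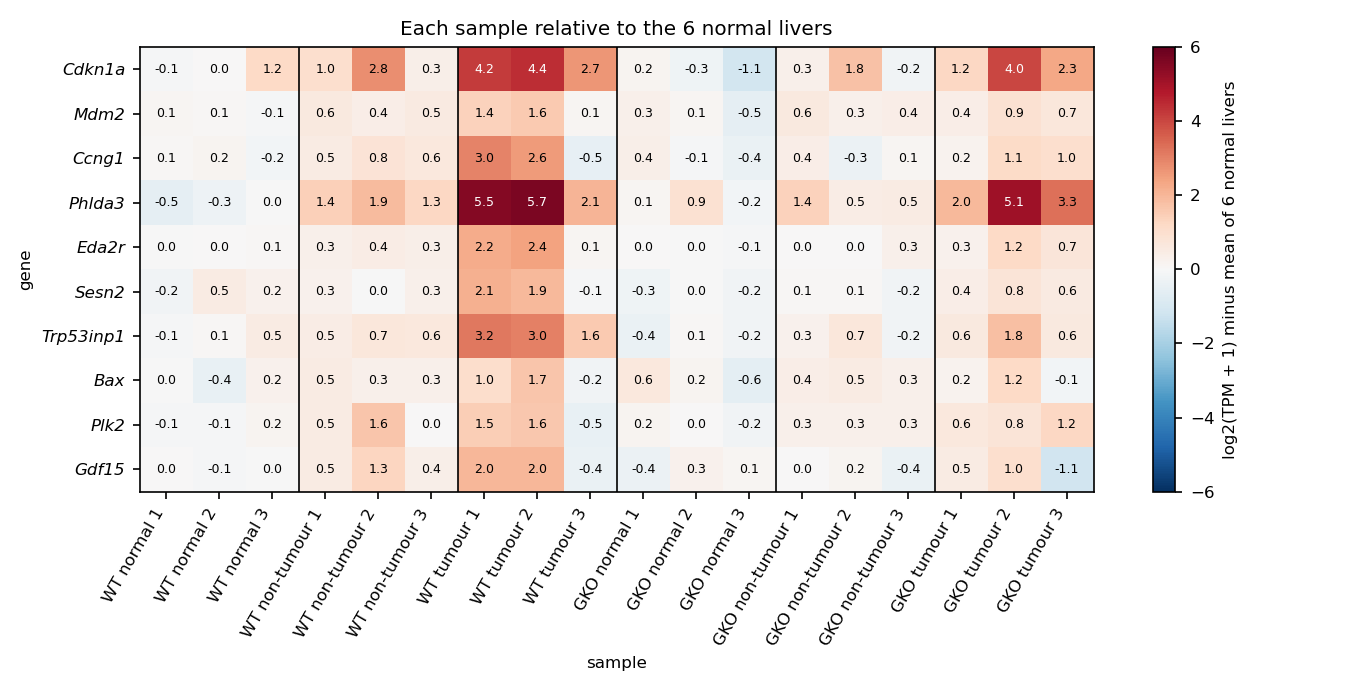
Each sample's log2(TPM + 1) minus the mean of the 6 normal livers, for the 10 genes (rows) in 18 samples (columns), with red for higher and blue for lower. Phlda3 in WT tumours 1 and 2 and GKO tumour 2, and Cdkn1a in the same 3 samples, have the largest differences, and the non-tumours have smaller ones.

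The first comparison asked how the p53 targets differed between DEN tumours and the surrounding liver of the same genotype. In WT mice the means of all 10 genes were higher in tumours, although the difference of Plk2, 0.18, turned to -0.16 when WT tumours 1 and 2 were averaged as 1 sample. None of the 10 passed an adjusted p of 0.05 (limma, Benjamini-Hochberg over 14003 genes, 4.23% of which passed). At an unadjusted p under 0.05 there were 3 genes, Cdkn1a, Phlda3 and Trp53inp1, where 19.9% of all genes were under it. Tumours and non-tumours did not overlap for Phlda3 and Trp53inp1, both with all tumours higher, as in 11.0% of all genes. The median difference of the 10 genes was 1.11 on the log2(TPM + 1) scale, on which fold changes of low genes are understated, and that of all genes was -0.02. Eda2r, with a mean of 0.391 TPM in WT non-tumours, passed the minimum mean of 0.5 TPM only through the tumours.

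Trp53inp1 came closest to the threshold, with a mean of 46.5 ± 23.4 TPM in WT tumours against 9.67 ± 0.834 TPM in WT non-tumours (SD, n = 3 each) and a difference of 2.00 ± 0.44 (SE, log2 scale, limma adjusted p = 0.0569). Phlda3 differed by 2.88 ± 0.92 (limma adjusted p = 0.152) and Cdkn1a by 2.38 ± 0.72 (limma adjusted p = 0.136). For the other 7 genes the difference lay between 0.18 for Plk2 and 1.21 for Eda2r, with limma adjusted p between 0.318 and 0.918. The calls turned on WT tumour 3. Without it, limma called 6 of the 10 genes higher in WT tumours (Mdm2, Ccng1, Phlda3, Eda2r, Sesn2 and Trp53inp1), among 1363 genes in all (9.68% of those tested). Without Eda2r, admitted by its tumour values, 5 calls remain. Phlda3 then differed by 4.06 (limma adjusted p = 0.00137), Trp53inp1 by 2.51 (adjusted p = 0.00218) and Mdm2 by 0.96 (adjusted p = 0.0348), on the log2 scale. Leaving out WT non-tumour 2 instead gave 1 call, Cdkn1a, with a difference of 3.08 (limma adjusted p = 0.0441), where 6.0% of all genes were called. WT tumours 1 and 2 were the most alike pair of samples within tumours, with a Pearson r of 0.982 across 13914 genes, which are not independent replicates, against 0.919 and 0.921 with WT tumour 3. They were not copies of each other, since Bax, for example, had 1600 reads in WT tumour 1 and 2466 in WT tumour 2. WT tumour 3 had a higher r with GKO tumours 1, 2 and 3 (0.928, 0.95 and 0.94) than with the other WT tumours.

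**Figure D3:**
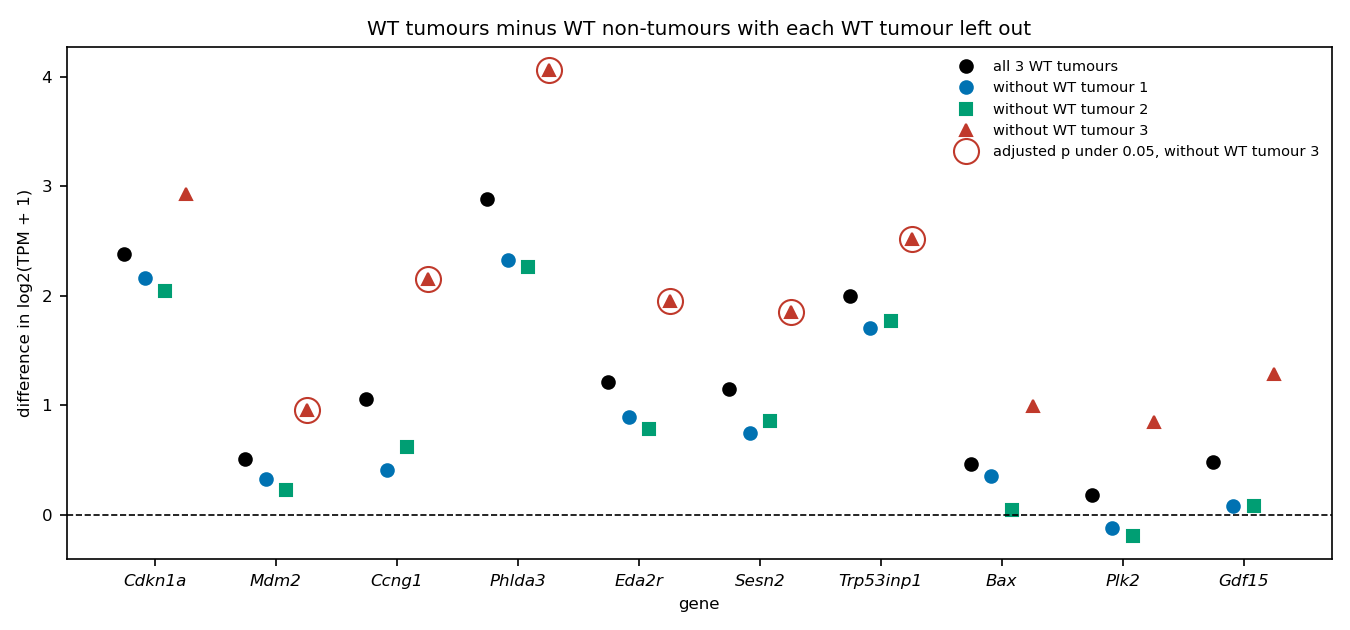
Difference between WT tumours and WT non-tumours in log2(TPM + 1) for each gene, with all 3 WT tumours (black) and with each left out in turn. Open circles mark a limma adjusted p under 0.05, and all 6 of them belong to the fit without WT tumour 3.

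In GKO mice the means of the 10 genes were also all higher in tumours than in non-tumours, although those of Mdm2, Bax and Gdf15 turned to -0.01, -0.22 and -0.05 under median centring of the samples. Eda2r, with a mean of 0.17 TPM in GKO non-tumours, passed the minimum mean only through the tumours here too, so its higher mean and its place in the median follow from the minimum. The median of all genes was itself 0.20 higher in GKO tumours, and the median of the 10 genes was 0.61. None of the 10 passed an adjusted p of 0.05 in limma, where 11.7% of 14092 genes did. Of those calls, 66.1% were higher in tumours, and 44.0% under median centring. At an unadjusted p under 0.05 there were 5 genes, Cdkn1a, Ccng1, Phlda3, Sesn2 and Plk2, and 31.7% of all genes were under it. All 3 GKO tumours were above all 3 GKO non-tumours for Phlda3, Sesn2 and Plk2, as in 25.7% of all genes.

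Phlda3 came closest to the threshold in GKO mice, with 37.2 ± 38.5 TPM in tumours against 3.31 ± 1.68 TPM in non-tumours (SD, n = 3 each) and a difference of 2.67 ± 0.72 (SE, log2 scale, limma adjusted p = 0.0547). Sesn2 differed by 0.60 ± 0.20 (limma adjusted p = 0.0949), Plk2 by 0.58 ± 0.22 (adjusted p = 0.120) and Cdkn1a by 1.88 ± 0.75 (adjusted p = 0.136). The level of Bax was 86.5 ± 45.8 TPM in tumours and 78.7 ± 4.97 TPM in non-tumours. Without GKO tumour 1, limma called Phlda3 higher, with a difference of 3.42 (adjusted p = 0.0209), where 7.12% of all genes were called. Leaving out any of the other 5 samples gave no call.

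The second comparison asked whether the loss of miR-181ab1 altered the p53 targets in tumours. The means of all 10 genes were lower in GKO than in WT tumours, with a median difference of -0.87 against 0.09 for all genes, although that of Plk2, -0.00, turned to 0.05 with a pseudocount of 0.1 and to 0.33 when WT tumours 1 and 2 were averaged. The groups overlapped for every one of the 10 genes, while 4.78% of all genes had all GKO tumours below all WT tumours. No gene of the 10 was called in limma (0.0215% of 13964 genes were), and 1, Trp53inp1, had an unadjusted p under 0.05, as did 8.87% of all genes. Trp53inp1 was at 14.4 ± 8.23 TPM in GKO tumours against 46.5 ± 23.4 TPM in WT tumours (SD, n = 3 each), a difference of -1.58 ± 0.53 (SE, log2 scale, limma adjusted p = 0.502).

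For the other genes the intervals were wide. The 95% interval of the difference between GKO and WT tumours ran from -3.65 to 1.74 for Phlda3, from -3.04 to 0.54 for Cdkn1a, and from -1.32 to 0.60 for Mdm2, on the log2 scale. Without WT tumour 3, the means stayed lower for all 10 genes and limma called 1, Sesn2, with a difference of -1.46 (adjusted p = 0.0443), among 1.05% of genes called. The difference between genotypes in the change from non-tumour to tumour was tested as an interaction and was called for none of the 10 genes (0.0142% of 14106 genes were called by limma), and none had an unadjusted p under 0.05, where 10.5% of all genes did. It was largest for Trp53inp1, at -1.24 with a 95% interval of -2.62 to 0.15 (limma adjusted p = 0.490). These comparisons share their tumour and non-tumour samples.

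**Figure D4:**
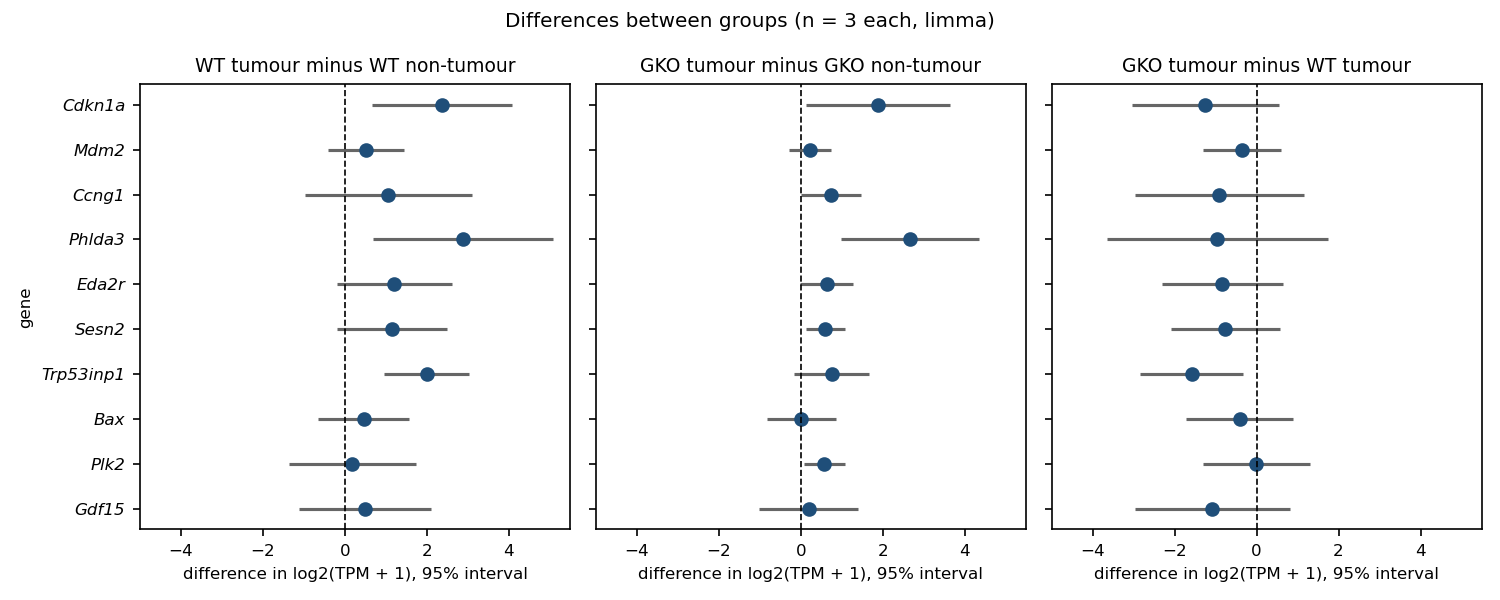
Differences of the 10 genes in log2(TPM + 1), with 95% intervals from limma (n = 3 samples in each group), for WT tumours minus WT non-tumours, GKO tumours minus GKO non-tumours and GKO tumours minus WT tumours. The intervals for GKO against WT tumours include 0 for all genes but Trp53inp1.

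The livers without tumour were compared next. WT non-tumours, taken from DEN-treated mice, had higher means than untreated WT normal livers for all 9 genes tested, although that of Sesn2, 0.01, turned to -0.36 under median centring. Eda2r was under the minimum mean of 0.5 TPM and was not tested in any comparison of livers without tumour. The median of all genes was 0.32 higher in WT non-tumours, where 79.7% of all genes were higher, and that of the 9 genes 0.61 higher. None was called in limma (0.00744% of 13440 genes were), and 4 had an unadjusted p under 0.05, Mdm2, Ccng1, Phlda3 and Gdf15, as did 24.4% of all genes. All 3 WT non-tumours were above all 3 WT normal livers for these 4 genes and Bax, as in 31.0% of all genes. Phlda3 was at 6.00 ± 1.71 TPM in WT non-tumours and 0.984 ± 0.348 TPM in WT normal livers (SD, n = 3 each), a difference of 1.81 ± 0.24 (SE, log2 scale, limma adjusted p = 0.114). It rested on 7 to 22 reads a sample in the normal livers.

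GKO non-tumours had higher means than GKO normal livers for 8 of 9 genes and a lower one for Gdf15 (-0.09), and the mean of Ccng1, 0.07, turned to -0.03 under median centring. Of all genes, 65.0% were higher in GKO non-tumours, with a median difference of 0.08 against 0.33 for the 9 genes. The largest difference was 1.03 ± 0.53 for Cdkn1a (SE, log2 scale, limma adjusted p = 0.99998), and it ran from 0.45 to 1.45 with 1 sample left out. Limma called no gene of all 13530 here (0.0%), and none of the 9 genes had an unadjusted p under 0.05, where 5.2% of all genes did. Plk2 was the only gene of the 9 whose groups did not overlap, with GKO non-tumours higher, as in 7.12% of all genes.

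Between genotypes, GKO non-tumours had lower means than WT non-tumours for 8 of 9 genes, although that of Mdm2, -0.07, turned to 0.09 under median centring. The median of the 9 genes was -0.41 and that of all genes -0.15, and 33.5% of all genes were higher in GKO. Ccng1 was at 8.45 ± 2.29 TPM in GKO and 12.9 ± 1.61 TPM in WT non-tumours, and Gdf15 at 16.8 ± 3.45 and 30.5 ± 11.7 TPM (SD, n = 3 each). All GKO values were below all WT values for both, as in 9.32% of all genes. Limma called no gene of all 13768 (0.0%), and only Ccng1 (-0.58 ± 0.24) and Gdf15 (-0.78 ± 0.31) of the 9 had an unadjusted p under 0.05, where 5.8% of all genes did (SE, log2 scale, limma adjusted p = 0.643 for both). In normal livers the 9 genes differed between genotypes by -0.80 for Cdkn1a to 0.56 for Phlda3 on the log2 scale, and the genotypes overlapped for each of the 9, where 7.95% of all genes did not overlap. Limma called none of 13099 genes there (0.0%), and none of the 9 had an unadjusted p under 0.05, where 3.96% of all genes did.

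Other p53 targets gave the wider pathway. Of a list of 32 that did not include the 10 genes, 29 were expressed well enough to be tested in the tumour comparisons. In WT mice, 2 of the 29 rose from non-tumour to tumour and none fell (limma), where 2.16% of all genes rose and 2.07% fell: Btg2, an antiproliferative factor, by 3.58 ± 0.61 (adjusted p = 0.0265), and Fbxw7, a ubiquitin ligase subunit that marks cyclin E and Myc for destruction, by 1.09 ± 0.21 (SE, log2 scale, adjusted p = 0.0396). Btg2 stood at 136, 130 and 44.2 TPM in WT tumours and at 4.79, 15.8 and 3.88 TPM in WT non-tumours, with all tumours above all non-tumours. Without WT tumour 3, 7 of the list were called (9.68% of all genes), and without WT non-tumour 2 it was 1 (6.0%). Without WT tumour 1, WT tumour 2, WT non-tumour 1 or WT non-tumour 3 it was 0 (1.17% to 1.53%). The median difference of the list was 0.46 against -0.02 for all genes. Apaf1, Pmaip1 and Tnfrsf10b passed the minimum mean only through the WT tumours, so their place in this median follows from the minimum. Both calls were among the other 26 targets.

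In GKO mice, 6 of the 29 rose and none fell (limma), where 7.75% of all genes rose and 3.97% fell: Aen, an exonuclease of apoptosis, Btg2, Ckap2, a spindle protein, Ddit4, an inhibitor of mTORC1, Gtse1, a microtubule protein that exports p53 from the nucleus, and Tnfrsf10b, a death receptor. Their differences lay between 0.99 for Gtse1 (adjusted p = 0.0418) and 3.63 for Btg2 (adjusted p = 0.00716). Btg2 stood at 21.3, 72.7 and 54.9 TPM in GKO tumours and at 3.91, 2.05 and 2.26 TPM in GKO non-tumours. Ckap2 and Gtse1 are also genes of dividing cells. Of the 29, 5 passed the minimum mean only through the tumours: Apaf1, Ckap2, Pmaip1, Psrc1 and Tnfrsf10b. Among these 5, 2 rose (Ckap2 and Tnfrsf10b), and 4 of the other 24 targets rose. The count of 6 was 3 without GKO tumour 3, 4 without GKO non-tumour 1, 2 without GKO non-tumour 2 and 1 without GKO non-tumour 3. In the same fits 5.34%, 11.1%, 4.39% and 1.62% of all genes were called in either direction. Median differences were 0.45 for the list and 0.20 for all genes. Between GKO and WT tumours none of the 29 was called and 2 had an unadjusted p under 0.05 (limma), where 8.87% of all genes did. These 2 differed in opposite directions, Sesn1 by 0.89 (higher in GKO) and Fbxw7 by -1.07 on the log2 scale. The median difference of the list was -0.36 against 0.09 for all genes.

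The tumours that were above all 12 livers without tumour for most of the 10 genes were not in every case those with most of the other targets. Of the 29 other targets, WT tumours 1, 2 and 3 were above all 12 livers for 15, 16 and 6 (21.7%, 22.3% and 19.9% of all genes). GKO tumours 1, 2 and 3 were above for 4, 11 and 17 (21.4%, 17.0% and 33.8%). Below all 12 livers were 0, 1 and 4 targets in WT tumours 1, 2 and 3 (14.1%, 12.5% and 15.0% of all genes). In GKO tumours 1, 2 and 3 these were 6, 0 and 2 (13.1%, 9.01% and 8.09%). GKO tumour 3 was the highest of the 6 tumours in the count above, and also in the share of all genes.

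The genes most like the 10 in their pattern were sought among 11888 genes averaging 1 TPM or more, by Pearson r over 18 samples with the mean of the 10 genes' scaled levels. The closest 5 were Zmat3 (r = 0.966), Psrc1 (r = 0.957), Aaas (r = 0.939), Cchcr1 (r = 0.938) and Maged2 (r = 0.938). The 18 points include WT tumours 1 and 2, which were alike across all genes. Zmat3, an RNA-binding protein gene, and Psrc1, a spindle gene, belong to the list of other p53 targets. Psrc1 stood at 50.2 and 61.5 TPM in WT tumours 1 and 2, at 22.7 TPM in GKO tumour 2 and at 0.674 TPM in WT tumour 3, with at most 1.42 TPM in the livers without tumour.

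The regulators of p53 formed the third group. Trp53, the gene of p53 itself, stood at 24.4, 20.7 and 12.6 TPM in WT tumours and at 21.2, 15.1 and 18.4 TPM in GKO tumours. It rose in GKO tumours against GKO non-tumours (10.4, 9.78 and 9.69 TPM) by 0.80 ± 0.21 (SE, log2 scale, limma adjusted p = 0.0478). Its order among GKO tumours was not that of the 10 genes, since GKO tumour 2 had the lowest Trp53 level and the highest level of 9 of them. Cdkn2a, whose locus encodes both ARF, the inhibitor of MDM2, and the kinase inhibitor p16, was highest in WT tumours 1 and 2 and GKO tumour 2, the tumours that were also highest for most of the 10 genes. It stood at 52.3, 83.6 and 7.93 TPM in WT tumours and at 7.57, 67.7 and 11.4 TPM in GKO tumours, at 0.98 to 4.08 TPM in the non-tumours and at 0 to 0.731 TPM in the normal livers. The value counts the locus as a whole and cannot separate its products.

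Cdkn2a rose in GKO tumours by 2.78 ± 0.72 (SE, log2 scale, limma adjusted p = 0.0486), together with Chek2, a DNA damage kinase, and Kat5, an acetyltransferase of the damage response, while Hipk2, a kinase that phosphorylates p53, fell by 0.88 (adjusted p = 0.0340). These and Trp53 were 5 of the 13 regulators tested, where 11.7% of all genes were called. At most 2 of the 13 were called when any 1 of the 6 samples was left out (1.62% to 11.1% of all genes). In WT tumours none of 14 regulators was called by limma and 2 had an unadjusted p under 0.05, as did 19.9% of all genes. There the difference of Cdkn2a was 3.01 ± 0.78 (SE, log2 scale, limma adjusted p = 0.0939). Chek2 passed the minimum mean only through the GKO tumours.

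**Figure D5:**
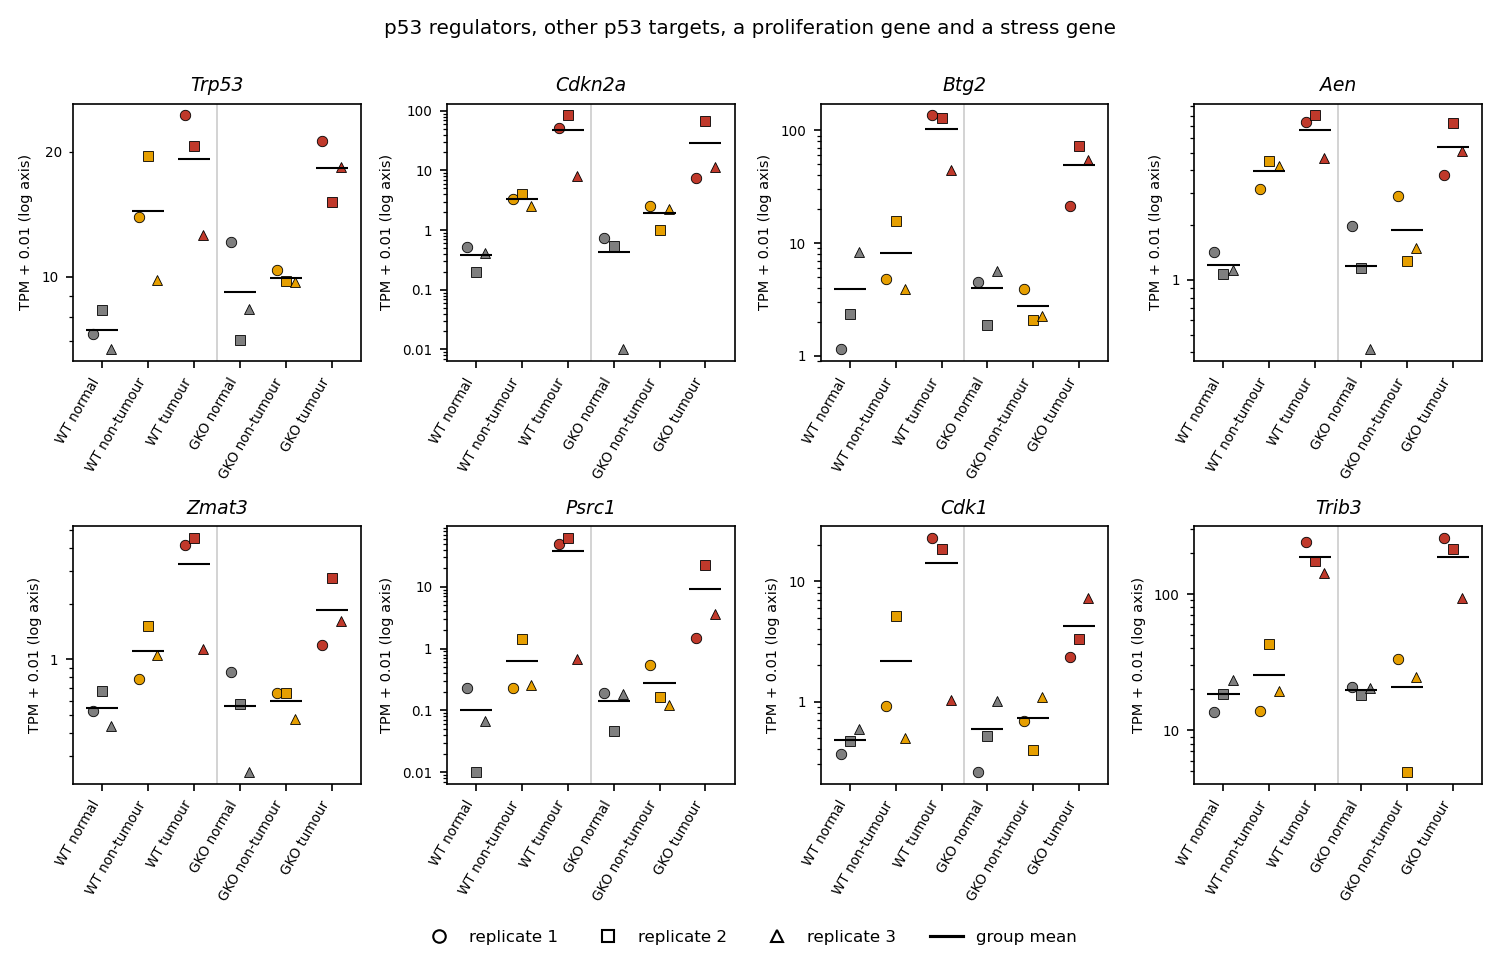
Levels of Trp53 and Cdkn2a, 4 other p53 targets, the cell cycle kinase gene Cdk1 and the stress gene Trib3 in TPM + 0.01 (log axis) for each sample, by group. Symbols give the replicate and lines the group mean of 3 samples, and Cdkn2a and Psrc1 are high in WT tumours 1 and 2 and GKO tumour 2.

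Genes of cell division, which p21 lowers through the DREAM repressor complex, were tested as 16 genes. In GKO tumours 12 of the 14 tested rose and none fell (limma), where 7.75% of all genes rose and 3.97% fell, but 7 of the 14 had a non-tumour mean under 0.5 TPM and were tested only because they were high in tumours. Of the remaining 7, 6 rose. The count of 12 was 4 without GKO non-tumour 2 and 3 without GKO non-tumour 3, where 4.39% and 1.62% of all genes were called. Ccnb2, a mitotic cyclin, rose by 3.88 ± 0.39 (SE, log2 scale, limma adjusted p = 0.00487), and Cdc20, an activator of the anaphase-promoting complex, by 3.52 ± 0.46 (adjusted p = 0.00792). The other 10 that rose, Ccna2, Ccnb1, Plk1, Birc5, Mki67, Aurkb, Cdk1, Mcm5, Top2a and Mcm2, did so by 0.97 to 2.30. In WT tumours 1 of 16 rose, where 2.16% of all genes did, the replication helicase gene Mcm2, by 1.52 ± 0.30 (SE, log2 scale, adjusted p = 0.0438). This call was lost without WT tumour 1, WT tumour 2, WT non-tumour 1 or WT non-tumour 3. The means of all 16 were higher in WT tumours. For Bub1 and Mybl2 this follows from the minimum, since their WT non-tumour means were under 0.5 TPM and they passed only through the tumours. With such genes included, the median difference was 1.66 in GKO and 1.49 in WT tumours, against 0.20 and -0.02 for all genes. Between GKO and WT tumours none of the 16 was called by limma. The means of 12 were lower in GKO and of 4 higher, with a median of -0.36 against 0.09 for all genes. Only 1, Mcm2 (-0.97), had an unadjusted p under 0.05, where 8.87% of all genes did. The summed level of the 16 genes was 239, 206 and 24.8 TPM in WT tumours 1, 2 and 3 and 92.4, 56.0 and 173 TPM in GKO tumours 1, 2 and 3, against 5.76 to 11.1 TPM in all livers without tumour but WT non-tumour 2, at 109 TPM. WT tumours 1 and 2 were thus high for both the p53 targets and the division genes, while GKO tumour 2 was the lowest of the GKO tumours for the division genes.

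Stress genes with inputs to Gdf15, Sesn2, Plk2 and Cdkn1a were read beside the 10 genes. Their counts stand against 2.16% of all genes called higher and 2.07% lower in WT tumours and 7.75% and 3.97% in GKO tumours, and against 19.9% and 31.7% with an unadjusted p under 0.05. With any 1 sample left out, 1.17% to 9.68% of all genes were called in WT tumours and 1.62% to 11.1% in GKO tumours. Of the ATF4 list of 11 genes, Trib3 rose in WT tumours by 2.95 ± 0.43 (SE, log2 scale, limma adjusted p = 0.0160), a call lost without any 1 of the same 4 samples as that of Mcm2, and Trib3, Atf3, Psat1 and Nupr1 rose in GKO tumours by 3.02 to 4.17 (2 calls without GKO non-tumour 3, and Psat1 passed the minimum mean only through the tumours). At an unadjusted p under 0.05 (limma) were 5 of the 11 in WT tumours, Trib3, Psat1, Ddit3, Nupr1 and Asns, all higher. In GKO tumours 6 of 10 were under it, Ddit3 and the 4 called genes, all higher, and Vldlr (-0.58). The median of the ATF4 list was 0.86 in WT tumours and 1.60 in GKO tumours, against -0.02 and 0.20 for all genes. Trib3 was high in all 6 tumours, with 242, 176 and 143 TPM in WT and 258, 216 and 93.6 TPM in GKO. Of 6 immediate early genes tested, which answer to growth factors and to tissue handling, Fos, Egr1, Junb and Ier2 rose in GKO tumours (1 to 3 of the 6 genes when any 1 sample was left out) and none was called in WT tumours (5 with an unadjusted p under 0.05 in limma). Of 6 NRF2 targets, Gclc fell in GKO tumours by 1.56 (limma adjusted p = 0.0308) and none was called in WT tumours (2 with an unadjusted p under 0.05). WT non-tumour 2 held 45.2 TPM of Atf3 and 118 TPM of Nqo1, against at most 1.64 and 14.5 TPM in the other WT non-tumours. Between GKO and WT tumours no gene of these 3 lists was called by limma, where 8.87% of all genes had an unadjusted p under 0.05. Of the ATF4 list 3 of 10 were under it, Asns (-2.98), Slc7a11 (-1.53) and Chac1 (-0.95), and of the NRF2 targets 1 of 6, Gclc (-1.98), all lower in GKO on the log2 scale. The median differences were -0.25 for the ATF4 list, -1.29 for the NRF2 targets and 0.28 for the immediate early genes, none of which was under it. The part of these signals in the levels of the 10 genes was not tested. Clock genes, which follow the time of day, were not called in either comparison (1 of 10 with an unadjusted p under 0.05 in WT tumours and 2 of 9 in GKO tumours, limma). Between GKO and WT tumours none was called either, but 7 of 10 had an unadjusted p under 0.05, where 8.87% of all genes did. Per3 and Dbp, genes of the clock's output and feedback, differed by 1.77 and 1.73 on the log2 scale (higher in GKO, limma adjusted p = 0.291 and 0.369), and Arntl, which encodes an activator of the clock, by -1.43 (adjusted p = 0.366). The part of the time of day in the levels of the 10 genes was not tested.

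Markers of other liver cells were read beside these results. In GKO tumours 7.75% of all genes rose and 3.97% fell, and 31.7% had an unadjusted p under 0.05 (limma). In WT tumours 2.16% rose, 2.07% fell and 19.9% were under that p. With any 1 sample left out, 1.62% to 11.1% of all genes were called in GKO tumours and 1.17% to 9.68% in WT tumours. Of 8 fibroblast and stellate cell markers, 5 rose and 1 fell (Dcn) in GKO tumours, with Col1a1, a fibrillar collagen, rising by 4.33 ± 0.38 (SE, log2 scale, limma adjusted p = 0.00406), Acta2 by 3.49, Col3a1 by 3.44, Col1a2 by 2.62 and Pdgfrb by 1.31. The median of the list was 1.97 against 0.20 for all genes. In WT tumours none of the 8 was called, and 5 had an unadjusted p under 0.05 (limma). These were Acta2 (2.31), Col1a1 (1.79), Col3a1 (1.32) and Col1a2 (1.14), all higher, and Dcn (-1.67), with a list median of 0.82 against -0.02. The levels of the 8 markers summed to 79.2, 95.8 and 53 TPM in WT tumours and to 117, 186 and 98.1 TPM in GKO tumours, against 37.3 to 85.5 TPM in the livers without tumour. The 6 cholangiocyte markers summed to 959 and 549 TPM in GKO tumours 2 and 3 and to 22.2 to 92.3 TPM in all other samples, nearly all of it Spp1 (934 and 536 TPM in those 2 tumours), with Krt19 at 5.47 and 1.05 TPM there. Of the macrophage markers, Marco fell in GKO tumours, where 3 of the 8 had higher and 5 lower means (median -0.73). Of the endothelial markers, Pecam1 and Cdh5 rose there, where 4 of the 8 had higher and 4 lower means (median 0.04). In WT tumours no marker of either list was called. There the means of all 8 macrophage markers were lower (median -0.99), 0 with an unadjusted p under 0.05 (limma). Of the endothelial markers 7 were higher in WT tumours (median 0.42), and 3 had such a p, Pecam1, Cdh5 and Kdr. T cell markers summed to at most 12.7 TPM in any sample, and none was called in the tumour comparisons (1 of 4 with an unadjusted p under 0.05 in GKO tumours, none in WT, limma). Of the hepatocyte markers, Alb rose in tumours of both genotypes, Apoa1 rose in GKO tumours, and Cyp3a11, a drug-metabolising enzyme, fell in WT tumours by 3.25 (limma adjusted p = 0.0314). With any 1 sample left out, the markers called in GKO tumours were 4 to 7 for fibroblasts, 0 to 2 for endothelial cells, 0 to 2 for macrophages and 1 for hepatocytes, and the hepatocyte markers called in WT tumours were 0 to 4. Between GKO and WT tumours no marker of these cells was called by limma. An unadjusted p under 0.05 was reached by 4 of 8 fibroblast markers and 3 of 4 cholangiocyte markers, where 8.87% of all genes were under it. All of these markers were higher in GKO, with median differences of 0.94 and 1.37 over the lists. Between WT non-tumours and WT normal livers none was called, and 5 of 8 macrophage markers had an unadjusted p under 0.05, all higher in non-tumours, with a median of 1.15 over the list, while 4 of 8 fibroblast and 3 of 8 endothelial markers did, where 24.4% of all genes were under it. The macrophage markers summed to 446, 224 and 653 TPM in WT non-tumours and to 187, 132 and 219 TPM in WT normal livers, led by C1qa in all but WT non-tumour 2, where Lyz2 led. In GKO non-tumours against GKO normal livers the means of all 8 macrophage markers were also higher, with a median difference of 1.05, and 1 had an unadjusted p under 0.05 (limma). There 3 of 4 cholangiocyte markers were lower and 3 of 4 T cell markers higher at an unadjusted p under 0.05, where 5.2% of all genes were under it. In GKO against WT normal livers, 5 of 8 fibroblast, 4 of 8 endothelial and 2 of 4 cholangiocyte markers were higher in GKO at that threshold (3.96% of all genes). In GKO against WT non-tumours 1 of 8 fibroblast and 1 of 8 endothelial markers passed it (5.8% of all genes). None of these markers was called by limma in the comparisons of livers without tumour. The part of cell composition in the levels of the 10 genes was not tested.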

How the data were processed

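Total RNA of frozen tissue was sequenced, and per the labels the authors aligned reads with STAR 2.7.3a to mm10 and counted them with featureCounts 2.0.0 of Subread. The deposited table holds TPM for 54838 genes, each sample summing to 1000000, and the annotation and TPM step are not given in the sources used here. Multiplying TPM by GENCODE M21 exonic length gave whole reads (within 0.02) for at least 97.95% of values of up to 30 reads, used only to describe depth. The number of reads limits the precision of low genes such as Eda2r.

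Groups were compared with limma 3.58.1 (R 4.3.3, trended empirical Bayes) on log2(TPM + 1), keeping genes that averaged 0.5 TPM or more over the fitted samples, with Benjamini-Hochberg adjustment over all genes, checked on simulated data. TPM are not counts, so no count model was used. With 3 against 3, an exact permutation test cannot go below 0.1 and was not used. The 10 genes and all gene lists were chosen with earlier results of these data known. Named were all 10 genes, list members past the threshold, or where none passed up to 4 with the smallest p, and the 5 genes most like them. Other genes' values for single samples, the limits of the promoter search, and the counts without WT non-tumour 2 were chosen after values were seen. A symbol listed more than once (Ddit3) was read from its higher row. Alternatives were the pseudocount, the filter, median centring, all samples in 1 fit, a replicate block and leaving out each sample. The B cell markers are not reported here.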

Additional observations from a re-analysis of the deposited data

Results flagged for a closer look

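The means of Phlda3 lay in opposite directions between genotypes in the livers without tumour, and neither difference was called (limma adjusted p = 0.643 in non-tumours and 0.999 in normal livers). The ratio of the GKO mean to the WT mean was 0.551 in non-tumours and 2.07 in normal livers. Each of the 3 GKO non-tumours (5.24, 2.29 and 2.39 TPM) was below the WT non-tumour mean of 6.00 TPM, and each of the 3 GKO normal livers (1.57, 3.42 and 1.13 TPM) was above the WT normal mean of 0.984 TPM. The difference between the 2 ratios was not tested, single values of the genotypes overlapped in both tissues, and the normal livers held 7 to 43 reads of the gene.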

How the results depend on the processing

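Calls among the 10 genes depended on the setting in the comparisons of tumours with non-tumours. In WT mice the count was 0 as reported, 1 with a mean of at least 5 TPM (Trp53inp1, limma adjusted p = 0.0385) and 2 when all 18 samples were fitted together (Phlda3, adjusted p = 0.029, and Trp53inp1, adjusted p = 0.00354). The shares of all genes called at the last 2 settings were 6.73% and 11.8%. In GKO mice it was 0 as reported and 1, always Phlda3, with a pseudocount of 0.1 (limma adjusted p = 0.0491), with a mean of at least 5 TPM (0.0459) and in the fit over all 18 samples (0.031). Of all genes, 11.7%, 14.9% and 19.3% were called at these settings. Phlda3, at a mean of 3.31 TPM in GKO non-tumours, passed the minimum of 5 TPM only through the tumours. The stricter mean tests fewer genes and the fit over 18 samples shares one spread among all groups. The cause of the other changes was not tested. Leaving out 1 sample gave 0 to 6 calls in WT mice, 0 to 1 in GKO mice and 0 to 1 between GKO and WT tumours, and 0 in the other 5 comparisons, which gave 0 under every setting run. Without WT non-tumour 2, an alternative chosen after seeing the data, GKO tumour 1 was above all other livers without tumour for 3 genes in place of 1.

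Samples of different groups share replicate numbers, but the deviations of same-numbered samples from their group means had a Pearson r of 0.00625, -0.00912 and 0.245 in WT tumours and non-tumours and of 0.119, 0.0689 and 0.0414 in GKO, so the numbers were not taken as pairs. With the number as a replicate block, limma called 1 of the 10 genes in WT mice and 1 in GKO mice, Cdkn1a in both (adjusted p = 0.0362 and 0.0345). The block moved the calls among all genes from 592 to 361 in WT mice and from 1652 to 1436 in GKO mice.

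No called difference among the 10 genes reversed, since none was called. The differences that changed sign are given on the log2 scale. Under median centring they were, for GKO tumours against non-tumours, Mdm2 at -0.013, Bax at -0.22 and Gdf15 at -0.045. For GKO against WT non-tumours it was Mdm2 at 0.092, for GKO against WT normal livers Gdf15 at -0.056, for WT non-tumours against normal livers Sesn2 at -0.36, and for GKO non-tumours against normal livers Ccng1 at -0.033. Averaging WT tumours 1 and 2 turned Plk2 to -0.16 against WT non-tumours and to 0.33 in GKO against WT tumours, and the interaction to 0.21 for Ccng1, 0.37 for Phlda3 and 0.11 for Gdf15. A pseudocount of 0.1 turned Plk2 to 0.047 in GKO against WT tumours.

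Leaving out 1 sample gave the following ranges where the sign changed. In tumours against non-tumours, Plk2 ran from -0.19 to 0.85 in WT mice, and Bax from -0.38 to 0.30 and Gdf15 from -0.25 to 0.81 in GKO mice. In GKO against WT tumours, Bax ran from -0.94 to 0.010 and Plk2 from -0.68 to 0.37. In GKO against WT non-tumours, Bax ran from -0.0095 to 0.11 and Plk2 from -0.76 to 0.057. In GKO against WT normal livers, Mdm2 ran from -0.24 to 0.19, Ccng1 from -0.24 to 0.13, Bax from -0.14 to 0.48, Plk2 from -0.098 to 0.078 and Gdf15 from -0.090 to 0.22. In WT non-tumours against normal livers, Sesn2 ran from -0.19 to 0.17. In GKO non-tumours against normal livers, Ccng1 ran from -0.10 to 0.27, Bax from -0.0038 to 0.62 and Gdf15 from -0.28 to 0.072. The interaction ran from -1.23 to 0.15 for Cdkn1a, -1.42 to 0.32 for Ccng1, -1.39 to 0.53 for Phlda3, -0.27 to 0.77 for Plk2 and -1.10 to 0.33 for Gdf15.

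Calls among all genes went from 592 in WT mice to 297 without the filter, 1649 with all 18 samples, 185 with WT tumours 1 and 2 averaged and 163 to 1363 with 1 sample left out. In GKO mice they went from 1652 to 589, 1047 with a mean of at least 5 TPM, 2722 with all 18 samples and 229 to 1567 with 1 sample left out. Between GKO and WT tumours they went from 3 to 107 with all 18 samples, to 0 without the filter, with a pseudocount of 0.1, with median centring or the block, and to 0 to 147 with 1 sample left out. Of the other p53 targets, the counts were 0 in WT and 2 in GKO mice without the filter, 5 and 3 with all 18 samples, 0 in WT mice with WT tumours 1 and 2 averaged, 1 and 4 with the block, 2 and 2 with a mean of at least 5 TPM, and 2 and 3 with median centring. Depth limits Eda2r, at 2 to 22 reads in the livers, and Phlda3, at 7 to 43 reads in the normal livers.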
